A study of Mus musculus with 9 samples.

Results

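Annexins are a family of proteins that bind the phospholipids of cell membranes when calcium rises. Of 55276 gene symbols measured by RNA sequencing, 12 were annexin genes, and 10 of these, Anxa1, Anxa2, Anxa3, Anxa4, Anxa5, Anxa6, Anxa7, Anxa8, Anxa11 and Anxa13, are described here. The family was chosen by a value of these same data, the loss of Anxa13 from Vcam1 knockout cells, and the other 9 members were taken by their symbols. Their values against control cells are therefore given with adjusted p values, whereas Anxa13 against control cells is described without a test.

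The cells were PPTR cells, a mouse intrahepatic cholangiocarcinoma line that carries an inducible Cre under the Prom1 promoter (Prom1CreERT2) and the fluorescent reporter Rosa-ZsGreen, and every group shares this background. Control cells, labelled WT and carrying intact Vcam1, were compared with the clones KO1 and KO2, each grown from a single cell after CRISPR/Cas9 cutting in an early Vcam1 exon. Each group had 3 libraries, which the study collected at different passages of the same cells. The p values of a comparison with a single clone therefore measure the spread between passages. In the combined comparison the 6 libraries of the 2 clones were fit together as replicates, so its spread also holds the difference between clones. A clone cannot be told apart from the knockout it carries. Libraries held 53415907 to 125223073 counts, and levels are CPM, counts scaled to a common library size by trimmed mean of M values (TMM).

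All 10 members passed the filter on low counts. Vcam1 mRNA was 248, 221 and 329 CPM in WT, 98.8, 92.4 and 128 in KO1, and 119, 99.4 and 83.0 in KO2. It was lower in both clones but not absent, and the mRNA level does not by itself check a cut in the coding sequence. For both clones the study reported lost Vcam1 expression, by quantitative RT-PCR and by flow cytometry. Replicate 3 of KO1 lay below both other KO1 libraries for 7 of the 10 annexins and for 41.1% of all tested genes, so results that rest on KO1 are also given without it where its absence mattered.

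Each annexin joins a calcium-binding core, which docks onto phosphatidylserine-rich membrane, to an amino-terminal tail that differs between members and binds partners such as S100 proteins. The proteins are known for organizing membrane domains, vesicle traffic, plasma membrane repair and the control of inflammation. Anxa13 is regarded as the founder of the vertebrate family, is found mainly in epithelia such as that of the intestine, and is linked to protein sorting to the cell surface. Anxa4 is abundant in bile duct and other secretory epithelia.

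Anxa13 was among the most abundant mRNAs of the control cells and was all but missing from both clones. It was 985, 956 and 1200.3 CPM in the WT libraries, which made it the 92nd most abundant symbol there. KO1 held 0.0150, 0.0417 and 0.0479 CPM, and KO2 held 0.0685, 0.0424 and 0.0444 CPM. These clone values rested on 1 to 4 counts a library against 51779 to 123626 counts in WT, so the groups lay far apart. Pooled over libraries, WT exceeded the clones 24489-fold (18 against 270309 counts, with an exact 95% interval of 15495 to 41322 for counting error only). Its fitted change ranked 4th from the lowest of 17672 genes in the combined comparison and 12th in each clone. The genes next to it in the combined order, Mal2 and Rnf39, were at 0 CPM in the clones, and a fitted change against counts at or near 0 is no measured fold. These values chose the family and are given as a description.

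Anxa13 lies on the minus strand of chromosome 15 (GRCm38, chr15:58341471-58389244), and its longest transcript of 1201 nt has 9 exons in the GENCODE annotation used here. That annotation lists it as a processed transcript with a reference genome error. No 31-base word of its transcripts occurred in another gene, so reads of its transcripts at this word length pointed to no other annotated gene. Of the protein-coding neighbours on either side, Klhl38 at 17.3 kb was not above 0.569 CPM in any library. It averaged 0.211 CPM in WT, 0.00532 in KO1 and 0.0161 in KO2, and was removed by the filter. Fam91a1 at 26.2 kb was 340.3 CPM in WT, 192 in KO1 and 231 in KO2, a log2 change of -0.68 (edgeR adjusted p = 0.0020). Farther out, Wdyhv1 fell (-0.67, adjusted p = 0.0021) and Tmem65 rose (1.09, adjusted p = 0.0018). Fbxo32 (0.02, adjusted p = 0.98) and Fer1l6 (-1.02, adjusted p = 0.46) were not called in the combined comparison. Fer1l6 changed by -4.40 in KO1 (adjusted p = 2.1e-06) and -0.10 in KO2 (adjusted p = 0.77). The neighbours were looked up after the values of Anxa13 were seen.

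By the root-mean-square difference of centred log2 CPM over 9 libraries, among 10867 genes of at least 5 CPM, the profiles nearest to Anxa13 were Hnf4a (0.50), Krt8 (0.66), Krt19 (0.73), F2rl1 (0.81) and Cldn3 (0.94). Hnf4a encodes a hepatic and epithelial transcription factor, Krt8 and Krt19 simple-epithelial keratins, F2rl1 a protease receptor, and Cldn3 a tight junction protein. Hnf4a was 226 ± 32.8 CPM (SD, n = 3) in WT and had no count in any clone library. The measure favours genes whose clone values sit at the floor of the log scale, and the profiles share their libraries.

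**Figure D1:**
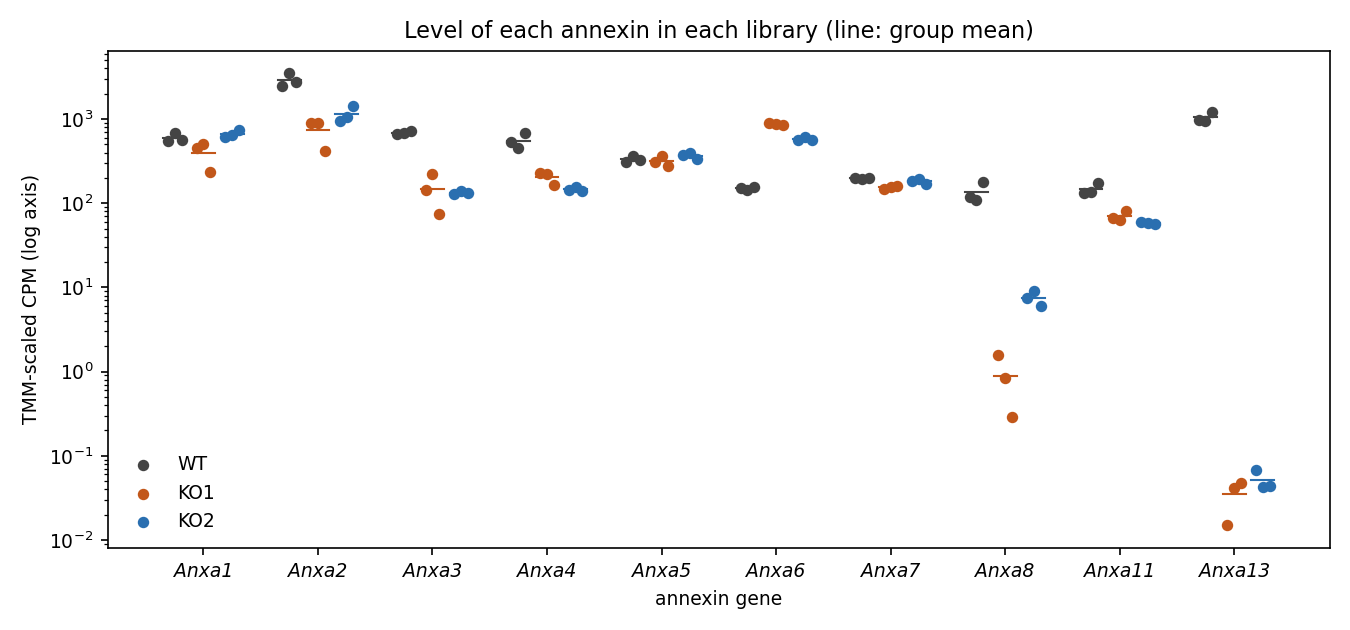
Level of each annexin in CPM (logarithmic axis) in the 9 libraries, coloured by group, with a line at each group mean. Anxa13 falls from 956 to 1200.3 CPM in WT to below 0.07 in both clones, Anxa8 separates all 3 groups, and Anxa6 is the member that lies higher in the clones.

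Against WT, 6 of the other 9 annexins differed in the combined comparison of 6 clone libraries with 3 WT libraries, 1 higher and 5 lower, and 3 did not pass the test. Over all genes 21.7% were called higher and 21.2% lower, and since the family was chosen on this contrast nothing is read from its count. Anxa6 rose, Anxa2, Anxa3, Anxa4, Anxa8 and Anxa11 fell, and Anxa1, Anxa5 and Anxa7 were not called. The median log2 change of the 9 was -1.20, beside 0.07 over all genes. For KO1 the calls were 1 higher and 6 lower (29.9% and 30% of all genes), and for KO2 1 higher and 5 lower (25.3% and 26.1%). Both clone comparisons share the same WT libraries. When a change of more than 2-fold was demanded, the combined calls of Anxa2 (edgeR adjusted p = 0.060) and Anxa11 (adjusted p = 0.14) were lost.

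The members that bind S100 proteins included the most abundant annexin. Anxa2, which forms a tetramer with S100a10 under the plasma membrane and promotes plasmin formation at the cell surface, was 2444, 3492 and 2775 CPM in WT, 900.3, 909 and 419.9 in KO1, and 947, 1058 and 1449 in KO2. Every clone library lay below every WT library. The log2 change was -1.62 ± 0.30 (SE) in the combined comparison (edgeR adjusted p = 0.0024), -1.97 ± 0.31 in KO1 and -1.33 ± 0.30 in KO2. Without KO1 replicate 3 the KO1 change was -1.68.

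Anxa1, a mediator of the anti-inflammatory action of glucocorticoids that binds S100a11, was 547, 691 and 569.6 CPM in WT, 452, 510.2 and 233 in KO1, and 614, 655 and 747 in KO2. KO1 lay below WT, whereas KO2 overlapped it. Neither difference from WT passed the test, with log2 changes of -0.60 (95% interval -1.17 to -0.02, edgeR adjusted p = 0.069) and 0.16 (-0.41 to 0.73, adjusted p = 0.63). KO1 replicate 3 held 48.5% of the mean of the other KO1 libraries, and without it the KO1 change was -0.32.

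Anxa11, whose long tail binds S100a6 and the penta-EF-hand protein Pdcd6, was 132, 135 and 175 CPM in WT, 66.7, 63.4 and 80.0 in KO1, and 59.1, 59.0 and 56.9 in KO2. It fell by 1.20 on the log2 scale (SE 0.14, edgeR adjusted p = 0.00014), with no overlap between the clones and WT. Of its 31-base words 15.1% occur in another annotated gene, most in Gm2260, so part of its count could be assigned to either.

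Anxa7, which has a similar long tail and binds sorcin, was 198, 196 and 199.95 CPM in WT, 148, 157 and 159.8 in KO1, and 182, 195 and 169.9 in KO2. All clone libraries lay below WT, though narrowly in KO2. It fell in KO1 by 0.36 on the log2 scale (edgeR adjusted p = 0.0096). In the combined comparison its change of -0.23 was not called (95% interval -0.49 to 0.02, adjusted p = 0.12), but DESeq2 called it (adjusted p = 0.039).

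Among the members known for binding membrane in epithelia, Anxa3 was 670.4, 679.6 and 715 CPM in WT, 143, 222 and 75.2 in KO1, and 130.3, 138 and 132 in KO2. The WT values were tight and all clone libraries were lower. Anxa3 fell by 2.30 on the log2 scale (SE 0.26, edgeR adjusted p = 0.00011), by 2.23 in KO1 and by 2.37 in KO2. The KO1 libraries spread widely around their mean, with a coefficient of variation of 50.0% against 3.26% in KO2.

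Anxa4 was 535, 458 and 676 CPM in WT, 230.0, 220.5 and 164 in KO1, and 143, 154 and 140.4 in KO2. It fell in both clones, by 1.67 on the log2 scale in the combined comparison (SE 0.20, edgeR adjusted p = 0.00017).

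Anxa8, best known from epidermis and other stratified epithelia, was 117, 108 and 179.7 CPM in WT, 1.56, 0.845 and 0.287 in KO1, and 7.42, 9.18 and 6.03 in KO2. No library of one group reached the range of another. The log2 change was -7.23 ± 0.53 (SE) in KO1 (edgeR adjusted p = 3.7e-06) and -4.16 ± 0.45 in KO2 (adjusted p = 5.5e-05), so that KO1 kept 0.664% and KO2 5.58% of the WT mean.

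Anxa5, the phosphatidylserine-binding protein used to stain apoptotic cells, was 309, 362 and 325 CPM in WT, 313, 364 and 281 in KO1, and 371, 397 and 331 in KO2. The groups overlapped, and the combined log2 change of 0.05 had a 95% interval of -0.26 to 0.35 (edgeR adjusted p = 0.81).

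Anxa6, the member with a duplicated core that is found on endosomes and the plasma membrane and links cholesterol traffic to the cytoskeleton, was the one annexin to rise. WT libraries held 152, 142 and 156 CPM, KO1 libraries 890.3, 865 and 861, and KO2 libraries 561, 613 and 557. The 3 groups did not overlap and each was tight. Anxa6 rose 4.83-fold in the combined comparison (log2 change 2.27 ± 0.22 SE, edgeR adjusted p = 4.5e-05), 5.82-fold in KO1 and 3.85-fold in KO2.

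Of the annexin symbols outside the 10, Anxa9 lay between 3.64 and 5.28 CPM in all libraries and was not called (edgeR adjusted p = 0.64). Anxa10 had 14, 19 and 11 counts in WT, 0 in each KO1 library and 0, 0 and 2 in KO2, and was removed by the filter. Anxa11os, an antisense gene within Anxa11, had no count.

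**Figure D2:**
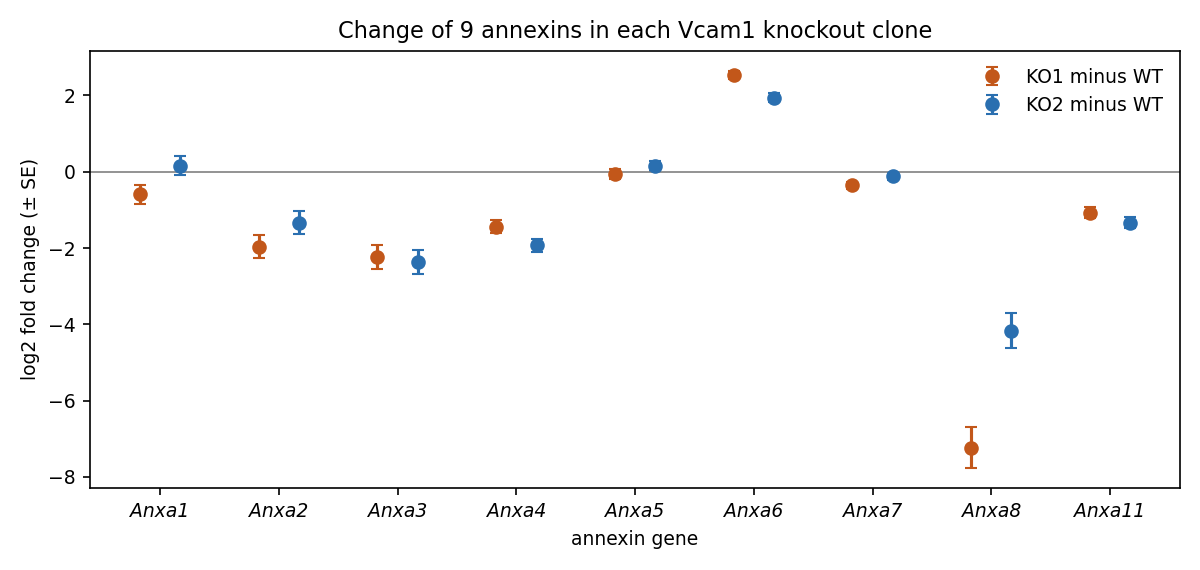
Fitted log2 fold change of 9 annexins in KO1 and in KO2 against the same WT libraries, with SE bars. Anxa6 lies above 0 in both clones at 2.54 and 1.94, Anxa8 is lowest at -7.23 and -4.16, and Anxa5 stays near 0. Anxa13 was left out because it chose the family.

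The 10 genes are spread over 8 mouse chromosomes (GRCm38). Anxa2 lies at chr9:69453620-69491795 on the plus strand with 9 exons in its longest transcript. Anxa6 lies at chr11:54979108-55033445 on the minus strand with 26 exons in its longest transcript. Anxa8 lies at chr14:34085981-34100571 on the plus strand with 12 exons in its longest transcript. The others are Anxa1 (chr19:20373428-20390944), Anxa3 (chr5:96793339-96845966), Anxa4 (chr6:86736840-86793584), Anxa5 (chr3:36448923-36475894), Anxa7 (chr14:20455260-20480133) and Anxa11 (chr14:25842156-25886804). No 31-base word was shared between any pair of the 10 annexins, so reads of one member were not open to assignment to another at this word length.

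Promoter sequences of RefSeq (GRCm38.p6) matched 7 of the 10 members. They are shown for the lowered annexins that matched, from 250 bases before the RefSeq start and stopped where an annotated exon begins, with capitals marking AP-1 (TGANTCA) or E-box (CACCTG) letters on either strand.
Anxa2 (chr9:69453433-69453619, plus strand): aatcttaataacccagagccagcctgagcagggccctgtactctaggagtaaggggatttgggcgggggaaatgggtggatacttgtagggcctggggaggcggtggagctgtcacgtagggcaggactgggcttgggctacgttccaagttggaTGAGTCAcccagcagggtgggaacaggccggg
Anxa4 (chr6:86793585-86793834, minus strand): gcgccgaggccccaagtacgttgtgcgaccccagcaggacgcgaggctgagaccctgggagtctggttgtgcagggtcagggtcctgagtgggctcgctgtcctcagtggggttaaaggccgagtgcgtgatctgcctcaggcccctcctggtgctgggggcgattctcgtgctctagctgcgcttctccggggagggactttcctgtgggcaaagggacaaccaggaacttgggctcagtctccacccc
Anxa8 (chr14:34085729-34085978, plus strand): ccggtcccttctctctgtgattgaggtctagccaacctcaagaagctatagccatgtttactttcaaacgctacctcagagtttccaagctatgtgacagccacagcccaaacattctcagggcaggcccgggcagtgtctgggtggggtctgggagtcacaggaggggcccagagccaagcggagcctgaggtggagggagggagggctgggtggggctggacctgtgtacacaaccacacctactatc
Anxa11 (chr14:25841905-25842154, plus strand): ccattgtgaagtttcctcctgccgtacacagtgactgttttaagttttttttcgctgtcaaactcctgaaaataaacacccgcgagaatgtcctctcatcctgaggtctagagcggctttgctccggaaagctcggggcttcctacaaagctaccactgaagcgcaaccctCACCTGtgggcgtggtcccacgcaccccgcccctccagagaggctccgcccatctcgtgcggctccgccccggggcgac
The Anxa2 stretch held 1 AP-1 match, beginning 95 bases before the RefSeq start, and that of Anxa11 held 1 E-box match, beginning 79 bases before it. Anxa4 and Anxa8 held neither in the windows shown. Over 32851 RefSeq promoters of 250 bases, 6.75% held an AP-1 match and 17.2% an E-box match. A match describes letters only.

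Between the clones, a contrast that the choice of the family did not use, 4 of 10 annexins differed. Anxa4 and Anxa6 were higher in KO1 (20.2% of all genes were) and Anxa1 and Anxa8 were lower (18.5% of all genes were). Anxa8 differed most, by -3.07 on the log2 scale (95% interval -4.10 to -2.03, edgeR adjusted p = 0.00095), and by -2.67 without KO1 replicate 3. Anxa6 was 1.51-fold higher in KO1 (0.36 to 0.83 on the log2 scale, adjusted p = 0.0020), a call that a demand for more than 2-fold ended. The calls of Anxa1 (-0.75, adjusted p = 0.043) and Anxa4 (0.49, adjusted p = 0.049) stood close to the threshold, and leaving out any KO2 library ended both. Without KO1 replicate 3, the log2 difference of Anxa1 was -0.48.

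For the 6 annexins not called between clones, the interval shows what size of difference the data allowed. It ran from -1.30 to 0.04 for Anxa2, -0.54 to 0.82 for Anxa3, -0.50 to 0.10 for Anxa5, -0.45 to -0.02 for Anxa7 and -0.04 to 0.57 for Anxa11. Anxa13, at 1 to 4 counts a library, could not show a difference between clones at this depth.

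**Figure D3:**
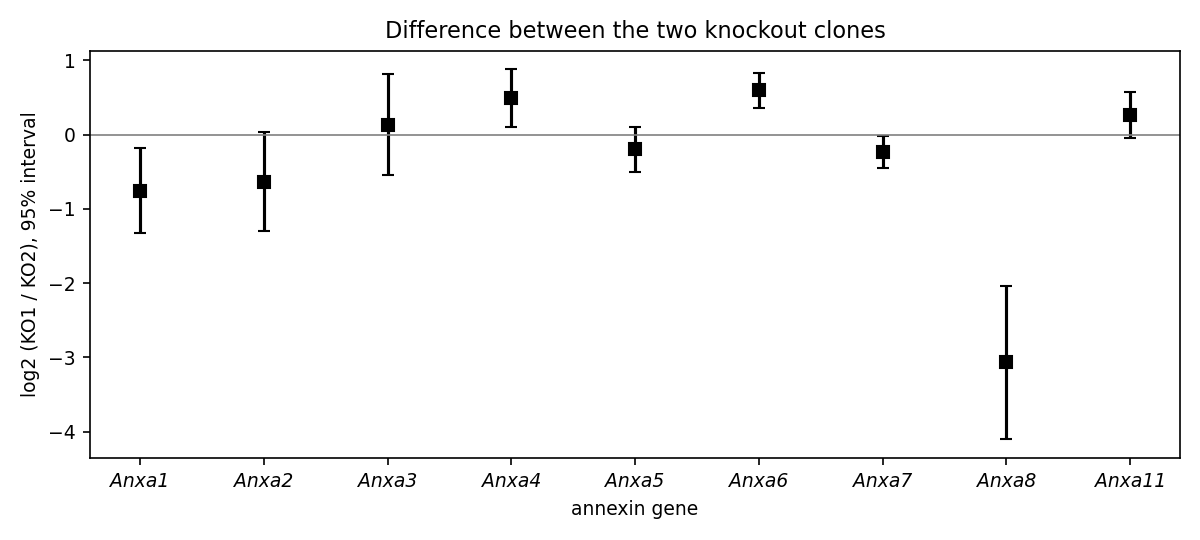
Log2 ratio of KO1 to KO2 for 9 annexins, with 95% intervals from the edgeR fit. Anxa8 at -3.07 and Anxa6 at 0.60 lie clear of 0, while the intervals of Anxa1 and Anxa4 end near it.

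By the same likeness measure, the genes nearest to Anxa8 over 9 libraries were Sult2b1 (0.29), Podxl (0.42), Gprc5a (0.45), Cdh6 (0.46) and Klf5 (0.53). Sult2b1 encodes a cholesterol sulfotransferase, Podxl an apical sialomucin, Gprc5a a retinoid-induced receptor, Cdh6 a cadherin and Klf5 an epithelial transcription factor. Podxl was 149 ± 38.5 CPM (SD, n = 3) in WT, 0.545 ± 0.296 in KO1 and 8.08 ± 0.400 in KO2, the same order of groups as Anxa8.

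Levels between annexins were compared per kilobase of the longest annotated transcript. In WT the order of levels was Anxa2 at 1273 ± 235 CPM per kilobase (SD, n = 3), Anxa13 at 872 ± 111, Anxa3 at 431 ± 14.6, Anxa1 at 359.9 ± 46.3, Anxa4 at 212 ± 42.1, Anxa5 at 192 ± 15.9, Anxa8 at 71.9 ± 20.7, Anxa7 at 68.2 ± 0.628, Anxa6 at 60.3 ± 3.02 and Anxa11 at 53.9 ± 8.88. Neighbours overlapped for Anxa4 with Anxa5, Anxa8 with Anxa7, and Anxa6 with Anxa11. In KO1 Anxa6 came first at 350.4 ± 6.35, overlapping Anxa2 at 326 ± 123. In KO2 Anxa2 came first at 505 ± 116, overlapping Anxa1 at 401 ± 40.7, ahead of Anxa6 at 232 ± 12.6.

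As a share of the summed annexin level per kilobase of the longest transcript, Anxa13 made up 24.3 ± 2.93% (SD, n = 3) in WT and Anxa6 1.69 ± 0.182%. Anxa6 made up 26.8 ± 6.08% in KO1 and 14.77 ± 1.499% in KO2. Anxa2 held 35.3 ± 4.51% in WT, 23.5 ± 4.90% in KO1 and 31.8 ± 4.59% in KO2. A share rises when others fall, so Anxa5 went from 5.34 ± 0.280% in WT to 13.9 ± 1.73% in KO1 at a CPM that was not called different. The 10 genes together took 0.610 to 0.732% of all counts in WT, 0.224 to 0.338% in KO1 and 0.296 to 0.369% in KO2.

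**Figure D4:**
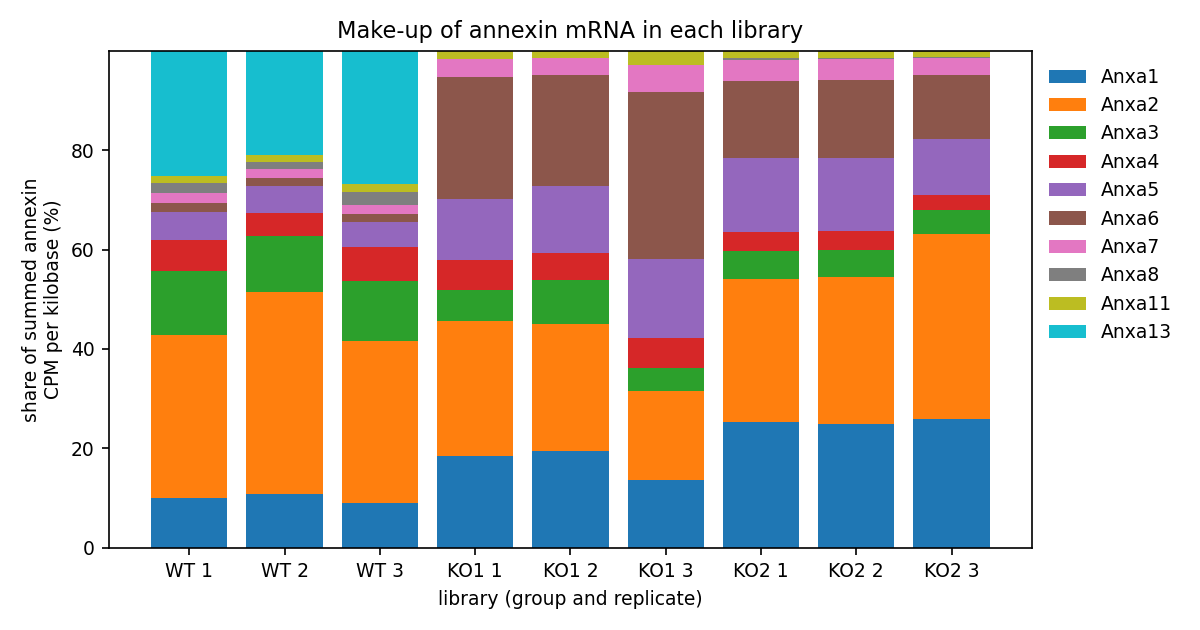
Share of each annexin in the summed annexin CPM per kilobase, in percent, one stacked bar per library. Anxa13 takes 21.0 to 26.7% of WT bars and none that can be seen in the clones, and Anxa6 takes 22.2 to 33.7% of KO1 bars.

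The counts of partner genes that follow are to be read against all 17672 genes tested. Of these, 21.7% were called higher and 21.2% lower in the combined comparison, and 20.2% and 18.5% between KO1 and KO2. Against WT the shares were 29.9% and 30% for KO1, and 25.3% and 26.1% for KO2. With the average of the clones' contrasts, 10464 of the 17672 genes were called in either direction. Of 5 S100 and scaffold partners, 1 was called higher and 1 lower in the combined comparison, 1 higher and 2 lower in each clone against WT, and 1 higher and 3 lower with the average of the clones' contrasts. S100a4 rose by 3.58 on the log2 scale (edgeR adjusted p = 0.00021), and S100a6 fell by 2.35 (adjusted p = 0.00017). S100a10, which is held with Anxa2 in their complex, was 508, 419.7 and 468 CPM in WT, 118, 113 and 57.5 in KO1, and 420.4, 489 and 589.8 in KO2. S100a10 was singled out after its values were seen. It was low in KO1 and overlapped WT in KO2, with a log2 difference between clones of -2.38 (adjusted p = 0.00019) and of 0.10 between KO2 and WT (adjusted p = 0.76). Anxa2 per kilobase therefore stood at 1.44, 2.50 and 1.78 times S100a10 in WT, 2.30, 2.42 and 2.19 times in KO1, and 0.676, 0.650 and 0.738 times in KO2. The KO2 ratios lay below all others.

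**Figure D5:**
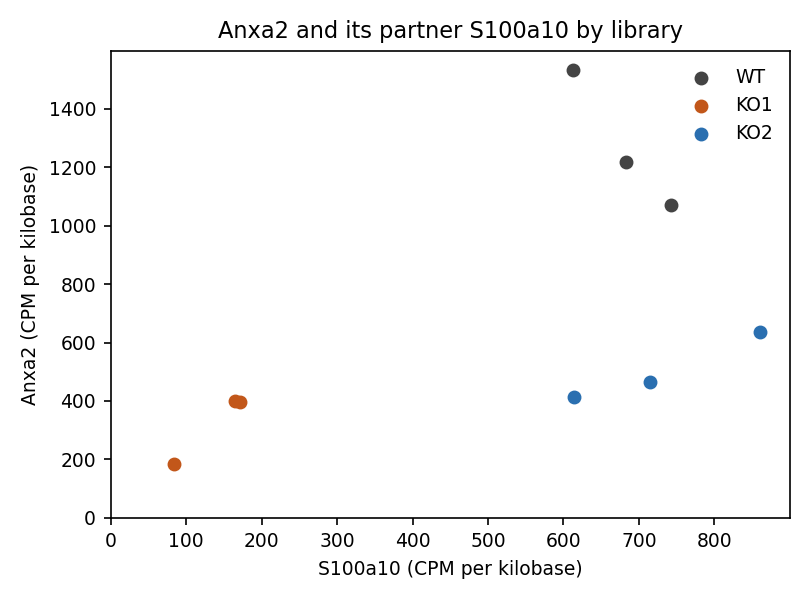
Anxa2 against S100a10, both in CPM per kilobase, in the 9 libraries. WT lies high on both, KO1 low on both, and KO2 combines S100a10 of 614 to 861 with Anxa2 of 415 to 635.

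The penta-EF-hand family includes sorcin, a partner of Anxa7, and Pdcd6, a partner of Anxa11, while the calpains share the fold. Of its 5 listed genes 2 rose and 1 fell in the combined comparison. Capn2, a calpain subunit, rose by 0.80 on the log2 scale (edgeR adjusted p = 0.0013). Sri, which encodes sorcin, rose by 0.76 (adjusted p = 0.0021), and Pef1 fell by 1.05 (adjusted p = 0.00029). Each of these calls was lost with a minimum fold change of 2. In the plasminogen activation list 7 of 8 genes were tested and 1 was called in the combined comparison. This was Plaur, the urokinase receptor, with a log2 change of -2.36 (adjusted p = 0.036). Plaur lay at 224 to 245 CPM in WT, 4.26 to 18.9 in KO1 and 73.7 to 86.9 in KO2, without overlap between groups. The combined call of Plaur was lost without any 1 of the WT libraries, without KO1 replicate 1 or 2, and with a minimum fold change of 2 (adjusted p up to 0.15). With the average of the clones' contrasts the list gave 1 higher and 3 lower, beside 10464 of 17672 genes called. Against WT alone, KO1 had 2 of the 7 higher and 4 lower, beside 29.9% and 30% of all genes. KO2 had 1 higher and 3 lower, beside 25.3% and 26.1% of all genes. Between the clones 2 of the 7 were higher and 5 lower in KO1, beside the 20.2% and 18.5% of all genes. Fpr1 and Fpr3, receptors for Anxa1, had no count in any library, and Fpr2 did not exceed the floor of 3 counts. Of the others of that list, Pla2g4a, a phospholipase held to be inhibited by Anxa1, fell by 1.39 (adjusted p = 0.0023). Trpm7 rose by 0.52 (adjusted p = 0.0078). With a minimum fold change of 2 both calls were lost, and that of Trpm7 also without WT replicate 1.

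Of 9 tested membrane repair genes 2 were called higher and 2 lower in the combined comparison, close to the 21.7% and 21.2% of all genes. Dysf, encoding dysferlin, a repair protein that works with annexins, was 4.70, 4.61 and 4.49 CPM in WT, 223, 274 and 173 in KO1, and 128, 129 and 108 in KO2. It rose by 5.23 on the log2 scale (edgeR adjusted p = 8.7e-06). Ehd2 rose by 2.01 (adjusted p = 0.00020), Syt7, a calcium sensor of membrane fusion, fell by 6.79 (adjusted p = 0.0032), and Pdcd6ip had a log2 change of -0.33 (adjusted p = 0.034), a call lost under 7 of 17 alternatives, among them no filter on low counts and leaving out WT replicate 1 or 3, KO1 replicate 1 or 2, or KO2 replicate 1. The counts were the same for 9 genes that set phosphatidylserine exposure, 2 higher and 2 lower. Among them the flippase Atp11a rose by 1.35 (adjusted p = 0.00073) and the flippase Atp8a1 fell by 9.28 (adjusted p = 2.9e-05). The Atp11a call was lost with a minimum fold change of 2. Plscr1 had a log2 change of -0.66 (adjusted p = 0.024), a call lost without any 1 of the WT libraries and with a minimum fold change of 2. Tmem30a had one of 0.28 (adjusted p = 0.046), a call lost under 12 of 17 alternatives, among them upper-quartile and RLE normalization, no filter on low counts, and leaving out any 1 of the libraries other than KO1 replicate 3.

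Cell type markers moved with the same groups. Of 9 tested biliary markers 6 were lower and 1, Spp1, was higher in the combined comparison, beside 21.2% and 21.7% of all genes. Krt19 was 2292 CPM in WT and 0.0596 and 0.149 in KO1 and KO2. Epcam, Cftr, Krt7 and Cdh1 had group means of 0.00493 to 1.34 CPM in the clones. These defining bile duct markers were thus near 0 there. The summed biliary level was 5006 to 6222 CPM in WT, 10618 to 11077 in KO1 and 7634 to 11082 in KO2. Spp1 alone held 2066 to 3133 CPM in WT, 10166 to 10794 in KO1 and 7459 to 10797 in KO2. The sum in the clones therefore follows Spp1 and not the other biliary markers. Hepatocyte markers were lower in 6 of 6 tested in the combined comparison, beside 21.2% of all genes. They summed to 253 to 449 CPM in WT, 1.61 to 3.05 in KO1 and 0.222 to 0.531 in KO2. Hnf4a alone held 207 to 264 CPM of the WT sum. Of 7 tested fibroblast and stellate cell markers 5 were higher in the combined comparison and in KO2, beside 21.7% and 25.3% of all genes. In KO1 4 were higher and 1, Dcn, was lower, beside 29.9% and 30% of all genes. Dcn averaged 74.6 CPM in WT, 4.34 in KO1 and 92.0 in KO2. The summed level of these markers was 431 to 835 CPM in WT, 10407 to 13029 in KO1 and 6209 to 7524 in KO2. Of these sums Col1a1 alone averaged 99.4, 8530.3 and 4735 CPM. Lum had no count in WT, 11, 11 and 147 counts in KO1 and 1, 1 and 0 in KO2. Lrat had 1 count in KO1 replicate 1 and none elsewhere, and Thy1 was not above 0.287 CPM in any library. Haematopoietic markers summed to at most 20.8 CPM and endothelial markers to at most 4.67 CPM in any library. Of 4 tested haematopoietic genes 1 was called higher and 2 lower in the combined comparison, and of 3 tested endothelial genes 1 higher. The shares over all genes were 21.7% higher and 21.2% lower. The part of these markers in the annexin changes was not tested, and fewer cells of a type cannot be told apart from less RNA per cell in these bulk samples.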

How the data were processed

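Messenger RNA libraries were sequenced by the authors as stranded read pairs and pseudoaligned with kallisto 0.46.1 to GENCODE transcripts of mm10 (GRCm38). The deposited table holds estimated counts per gene symbol, without normalization, and 0 of its values were not whole. Gene summing is not given in the sources used here, and 0 columns were left unused. Libraries were grouped by label. Part of the line's genotype is not reported here. Counts were filtered with filterByExpr, leaving 17672 of 55276 genes, scaled with TMM and tested with the quasi-likelihood test of edgeR 4.0.16 (R 4.3.3), with Benjamini-Hochberg adjustment over all tested genes and a threshold of 0.05. The fit was tested on simulated data. Intervals and SE come from that fit. Log2 CPM for likeness used a prior count of 2. Gene positions, lengths and 31-base words came from GENCODE for GRCm38 at an earlier release than the authors' own. Alternatives used limma 3.58.1 and DESeq2 1.42.0, other normalizations and filters, a minimum fold change of 2, other fits and each library left out. All 10 annexins are named. Partner lists give up to 4 called genes of highest CPM. Members, lists and tests were chosen with earlier results of these data known.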

Additional observations from a re-analysis of the deposited data

Results flagged for a closer look

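Annexins whose change from WT differed between KO1 and KO2 were taken from the test of the difference itself, the KO1 against KO2 contrast of the edgeR fit. They were Anxa1, with a log2 difference (KO1 minus KO2) of -0.753, Anxa4 with 0.491, Anxa6 with 0.597 and Anxa8 with -3.07. Anxa6 and Anxa8 passed the threshold with adjusted p of 0.0020 and 0.00095, and Anxa1 and Anxa4 only just. Whether these differences belong to the clones or to the passages at which they were collected was not tested.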

How the results depend on the processing

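The number of annexins called was 6 against WT in the combined comparison (4 to 7 over all alternatives), 7 for KO1 (5 to 8) and 6 for KO2 (5 to 6). Over all genes the calls were 7591 (2973 to 10464), 10586 (4680 to 11033) and 9087 (3712 to 10203). The main fit tested 17672 genes and the alternatives 13091 to 34314. Between the clones 4 annexins were called, but 1 with a minimum fold change of 2 and 5 with DESeq2. Over all 17672 genes these settings called 6834, 1782 and 7615. The number of annexins ranged from 2 to 4 when 1 library was left out, while 4943 to 7408 of all genes were called. It was 2 without WT replicate 1, KO1 replicate 1, KO2 replicate 1 or KO2 replicate 2. With limma-voom Anxa3 between clones turned from 0.14 to -0.0029, and without 1 library it ranged from -0.29 to 0.45. The change of Anxa5 ranged from -0.011 to 0.10 in the combined comparison and from -0.16 to 0.032 in KO1 when 1 library was left out, and was not called. The cause of these shifts was not tested. Anxa1 in KO1 was called with limma-voom (adjusted p = 0.047), with DESeq2 (0.033), with no filter (0.035) and without KO1 replicate 2 (0.031). With length taken as the union of exons, 3 of 10 annexins kept their place in the WT order per kilobase and 6 of 10 in each clone. Anxa2 and Anxa13 then overlapped in WT, at means of 778 and 777 CPM per kilobase. Each made up 31.7% of the summed level there, and Anxa6 made up 32.4% in KO1 and 18.6% in KO2. No paired analysis was possible because the replicate numbers were given in accession order and carry no pairing. Differences of Anxa13 and Anxa10 in the clones are limited by counts near 0.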
